A study of Mus musculus with 18 samples.

Results

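A set of 10 genes of the hepatic acute-phase response was followed through 18 mouse liver transcriptomes. They were the serum amyloid A genes Saa1, Saa2, Saa3 and Saa4, the orosomucoid genes Orm1, Orm2 and Orm3, and Hp, Lcn2 and Lbp. The 10 members were chosen by gene symbol out of 52230 genes with summed transcript counts, and all 10 were among the 10938 genes with enough counts to be tested. The mice came from the knock-in line GCKR-P446L-EMI-B6N and carried either the 446P (PP) or the 446L (LL) variant of Gckr, whose product GKRP holds glucokinase inactive in the hepatocyte nucleus. All were kept on standard chow and none had a further allele or drug in the labels. There were 4 male PP mice labelled 9, 12, 14 and 14 weeks old and 4 male LL mice labelled 13, 13, 13 and 14 weeks. The 5 female PP mice were labelled 9, 9, 11, 12 and 14 weeks, and the 5 female LL mice 11, 11, 13, 13 and 14 weeks, while the series description puts every mouse at 14 weeks. The study calls its 14-week PP mice litter mates of the LL mice. Which of the 18 mice here shared a litter was not given.

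In an acute-phase response, cytokines released at a site of injury or infection, chiefly IL-6 and IL-1, act on receptors of the hepatocyte. STAT3, NF-kB and the C/EBP factors then raise the transcription of secreted plasma proteins, while albumin and other plasma proteins fall. Saa1 and Saa2 encode the serum amyloid A proteins that travel on high-density lipoprotein and are among the most inducible products of mouse liver. Saa3 is made largely by macrophages and adipocytes, and Saa4 encodes the constitutive member of the family. The Orm genes encode alpha-1-acid glycoproteins, plasma carriers of basic drugs and lipids. Hp encodes haptoglobin, which binds free haemoglobin, Lcn2 encodes lipocalin 2, which withholds iron siderophores from bacteria, and Lbp encodes the protein that hands lipopolysaccharide to CD14 and TLR4.

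The members lie in clusters that bear on what can be counted. On GRCm39 Saa1 (chromosome 7, 46389916 to 46392547), Saa2 (chromosome 7, 46401214 to 46403737), Saa3 (chromosome 7, 46361422 to 46365576) and Saa4 (chromosome 7, 46377406 to 46382035) are neighbours. Orm1 (chromosome 4, 63261052 to 63272189), Orm3 (chromosome 4, 63274208 to 63277748) and Orm2 (chromosome 4, 63280686 to 63284115) follow each other in the same way. Lcn2 (chromosome 2, 32274645 to 32278264) and Lbp (chromosome 2, 158148409 to 158174800) are far apart on their chromosome, and Hp is on chromosome 8, 110301759 to 110305804. All 10 are annotated as protein coding. The coding sequences of Saa1 and Saa2 are identical at 348 of 366 bases, or 95.1%, and those of Orm1 and Orm2 at 558 of 621, or 89.9%. Coding bases 60 to 149 are shown for Saa1 and Saa2. They are counted from the A of the start codon, in the Saa1 transcript of 609 bases and the Saa2 transcript of 606 bases. This is the stretch of 90 bases where the pair differs most, with 11 of its 18 differing bases, in capitals.
Saa1: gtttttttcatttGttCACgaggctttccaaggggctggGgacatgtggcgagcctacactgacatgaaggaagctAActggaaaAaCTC
Saa2: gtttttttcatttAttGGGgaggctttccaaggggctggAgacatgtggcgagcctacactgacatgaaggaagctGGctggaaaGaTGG
Coding bases 139 to 228 of Orm1 and Orm2 were picked in the same way. Here 20 of the 90 bases differ, out of 63 in the whole coding sequence, and are in capitals.
Orm1: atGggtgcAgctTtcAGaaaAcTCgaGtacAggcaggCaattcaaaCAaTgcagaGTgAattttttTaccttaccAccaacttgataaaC
Orm2: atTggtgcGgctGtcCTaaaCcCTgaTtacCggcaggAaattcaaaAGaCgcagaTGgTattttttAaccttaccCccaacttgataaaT
Of the 31-base words in all GENCODE M39 transcripts of each gene, 43.5% of those in Saa1 and 46.6% of those in Saa2 also occur in another gene, nearly all in the other of the pair. For Orm2 the share is 35.03% and for Orm1 11.7%, against 6.29% for Saa3 and 3.24% or less for Saa4, Orm3, Hp, Lcn2 and Lbp. GENCODE M39 gives 1809 such words for Orm1 and 2161 for Orm3. The counts come from 1 transcript of each, of 775 and 773 bases. The shares of these genes are therefore not those of the counted transcripts, where they may be higher. Salmon, the tool that estimated the counts, divides reads from such words between transcripts. Separate values of Saa1 and Saa2, and of Orm1 and Orm2, are therefore uncertain, and the sums of each family are given beside them.

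The upstream sequences share 1 feature that the choice of genes did not use. RefSeq promoter windows (GRCm38.p6) were given for 7 of the 10 members, all but Hp, Lbp and Orm1, and the 250 bases before each start were placed by exact match on GRCm39. The C/EBP core TTNNGCAA, searched on both strands, occurs in all 7, against 9.56% of 32851 windows of the same length. A stretch of 30 bases around a match is shown for each gene, read along its strand with the matching 8 bases in capitals, which spell the reverse complement of the core where the match is on the other strand.
Saa1, chr7:46392568-46392597, strand -: ctgtgctcccaTTGCACAAtgagggagaat
Saa2, chr7:46401063-46401092, strand +: ctgtgctcccaTTGCACAAtgagggaaaat
Saa3, chr7:46365181-46365210, strand -: ggtaagtgggaTTATGCAAgatcaaacagg
Saa4, chr7:46382061-46382090, strand -: accaggaaggaTTGAGCAAgagggactctg
Orm2, chr4:63280555-63280584, strand +: gagagaacattTTGCGCAAgacatttccca
Orm3, chr4:63274263-63274292, strand +: gagggaacattTTGCACAAgacatttatca
Lcn2, chr2:32277949-32277978, strand -: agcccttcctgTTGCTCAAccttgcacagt
Starts are those of RefSeq, and the stretches of Saa3, Orm3 and Lcn2 lie inside the GENCODE bounds of their genes. For Saa3 and Lcn2 all 250 bases do, so nothing before the GENCODE start was searched there. For Saa1, Saa2, Saa4 and Orm3 a part of the 250 bases does. In Saa1 the match begins 182 bases before the start and in Saa2 183 bases before it, and the 2 stretches differ by a single base outside the match. In Orm2 and Orm3 the matches begin 120 and 121 bases before the start. The windows of Saa1 and Saa2 are 94.8% identical and those of Orm2 and Orm3 85.5%, so the 7 matches are not 7 separate cases. Saa4 holds a second match at 245 bases before the start. The STAT3 motif TTCNNNGAA, found in 7.02% of all windows, and the loose NF-kB motif, found in 1.41%, have no match in these 7. Nor have the stricter STAT3 form TTCCNGGAA (0.913% of windows) and the strict NF-kB motif (0.140%).

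Library totals ranged from 3794671 to 6613905 estimated counts. The fragment length, read from the difference between length and effective length, ranged from 203 to 631 bases between libraries, and a mean of 518 bases in male PP stood against 407 in male LL, 448 in female PP livers and 292 in those of female LL mice. Genes were called at a DESeq2 adjusted P below 0.05 where the ratio of the groups was 1.3 or more, or 0.7 or less. Counts are given divided by the size factor of the library (normalized counts). Hepatocyte markers carried 414250 to 513320 summed normalized counts in male PP and 711700 to 841520 in female PP livers, while markers of adipocytes and exocrine pancreas summed to at most 2.00. In bulk tissue a lower count can come from fewer cells of a type or from less RNA per cell, and these cannot be told apart.

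Saa1 and Saa2 were high and scattered in male PP livers, lower in male LL livers and near their lowest in females of either genotype. Saa1 had 2043, 12575, 591 and 750.2 normalized counts in male PP mice 1 to 4. In male LL mice it had 311, 366, 282 and 631. Female PP mice had 69.1, 77.4, 80.8, 72.1 and 101, and female LL mice 105, 68.4, 119, 94.7 and 104. Male PP 2 stood far above the next male, and no female reached the lowest male of either genotype. Saa2 had 461, 7007, 184 and 295 in male PP livers and 98.1, 105, 92.1 and 299.5 in those of male LL mice. It had 25.2, 34.6, 33.2, 43.7 and 49.2 in female PP livers and 54.1, 49.96, 62.95, 59.7 and 44.7 in those of female LL mice. The order of the groups was the same for both genes, with male LL 4 the highest of its group and inside the range of the male PP mice.

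**Figure D1:**
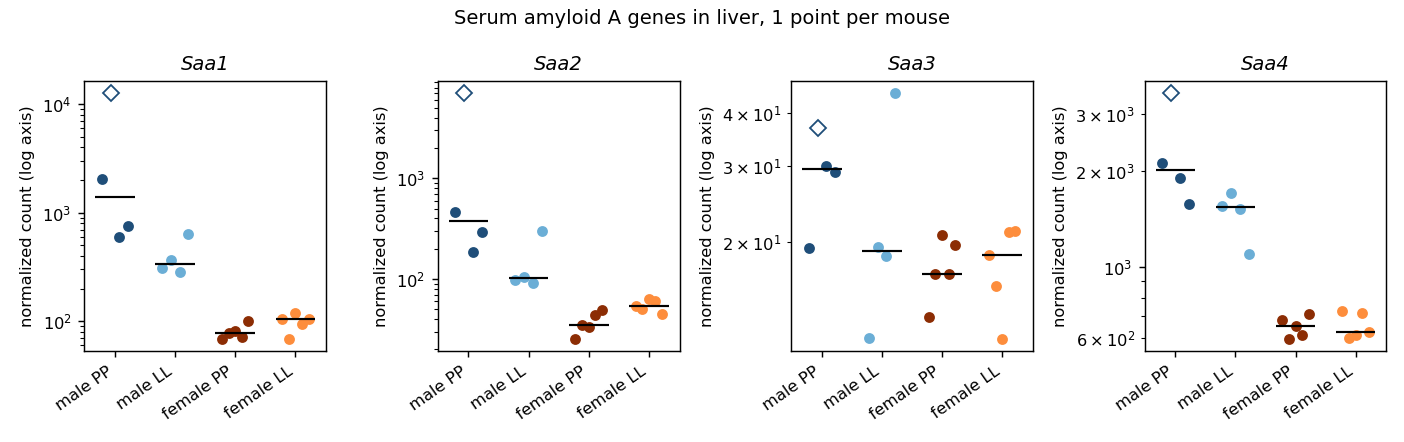
Normalized counts of the 4 serum amyloid A genes in each liver on log axes, 1 point per mouse by group, with the median of each group as a line and male PP 2 as an open diamond. Male PP 2 is the highest mouse for Saa1, Saa2 and Saa4, and all 10 females lie below all 8 males for those 3 genes.

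Saa4, whose protein is made without an acute stimulus, followed sex with less scatter. It had 2117, 3491, 1893 and 1573 normalized counts in male PP livers and 1554, 1701, 1520.5 and 1098 in those of male LL mice. Female PP mice had 679.8, 593, 652, 609 and 712 and female LL mice 727, 599, 611, 715 and 623. Males of either genotype were above all females, while male PP and male LL mice overlapped. Saa3 was low in every liver, from 19.4 to 36.9 in male PP, 11.9 to 44.5 in male LL, 13.3 to 20.7 in female PP and 11.8 to 21.2 in female LL mice, and all 4 groups overlapped.

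Per transcript length, Saa1 was on average the leading gene of the family in males and Saa4 in females. In TPM, a level scaled for length, Saa1 made up 62.1% ± 5.35 (SD, n = 4) of the summed Saa level in male PP livers and 47.4% ± 7.66 (n = 4) in those of male LL mice, with Saa2 at 23.01% ± 7.86 and 18.02% ± 7.45. In females Saa4 held 47.9% ± 7.64 in PP and 40.8% ± 5.49 in LL livers (SD, n = 5 each), against 13.2% ± 8.95 in male PP livers and 31.9% ± 15.7 in those of male LL mice. In male LL 2 Saa4 was above Saa1, and in female LL 3 Saa1 was above Saa4. Saa3 never passed 9.17% of the family. The TPM of short transcripts leans on the fragment length of the library. The effective length of the 609-base transcript of Saa1 ran from 135 to 438 bases over the 18 libraries, and its part in these shares was not tested.

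**Figure D2:**
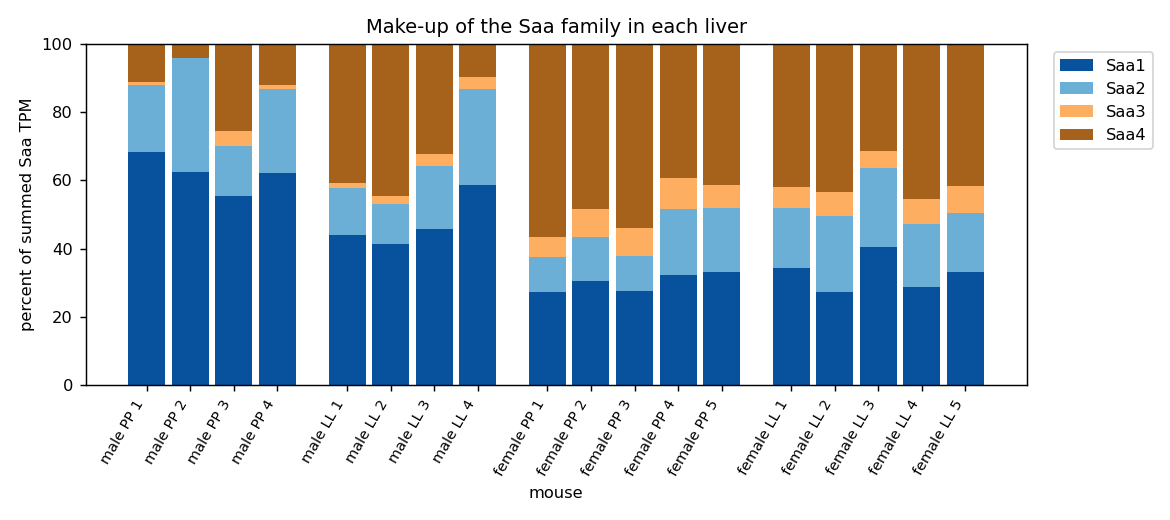
Share of the summed TPM of the 4 Saa genes held by each gene, as stacked percentages with 1 bar per mouse. Saa1 and Saa2 fill most of the bar in male PP mice, with Saa4 down to 3.99% in male PP 2, and Saa4 is the widest band in most females.

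Within the pair, the share of Saa2 passed no test between the genotypes with all mice. Saa2 held 26.5% ± 7.36 of the Saa1 and Saa2 counts in male PP livers and 25.8% ± 4.40 in those of male LL mice (SD, n = 4 each, two-sided exact permutation p = 0.943). The shares were 31.5% ± 4.17 in female PP livers and 35.9% ± 4.67 in those of female LL mice (SD, n = 5 each, two-sided exact permutation p = 0.135). Without female PP 4 the female difference, LL less PP, was 6.05 percentage points (two-sided exact permutation p = 0.0476). With all mice the smallest p these designs allow is 0.0286 for males and 0.00794 for females. Which transcript of Saa2 took the counts varied, with the coding transcripts of 606 and 652 bases each holding from 0% to 100% of it in a library.

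The orosomucoid genes split by abundance. Orm1 carried nearly all of the family, 98.4% ± 0.959 of the summed Orm TPM in male LL and 92.9% ± 7.19 in male PP livers (SD, n = 4 each). It had 6363, 8134, 4255 and 3775 normalized counts in male PP livers and 3485, 3889, 3557 and 4286 in those of male LL mice. Females had 2924 to 4049 in the PP and 2583 to 5779 in the LL group, so all groups overlapped. Orm2 had 134, 1727, 132 and 185 in male PP livers and 102, 52.97, 29.9 and 48.98 in those of male LL mice, with no overlap. In females Orm2 had 100.3, 88.5, 70.9, 93.9 and 89.01 with PP and 178, 64.8, 57.3, 88.05 and 74.3 with LL. Orm3 had 13.5, 29.6, 18.3 and 13.6 in male PP livers and 6.63, 3.77, 1.28 and 3.24 in those of male LL mice, again with no overlap. Female PP mice had 9.19, 11.5, 7.66, 14.02 and 13.9 and female LL mice 21.99, 14.2, 42.1, 8.91 and 9.01 normalized counts of Orm3, all above the male LL mice. With 1.28 to 6.63 normalized counts in male LL livers, Orm3 carried a wide counting error.

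Hp, Lcn2 and Lbp stand outside the 2 families. Hp had 16468, 31222, 12188 and 16275 normalized counts in male PP livers and 6298, 11569.5, 10219 and 14102 in those of male LL mice. Females had 7516 to 10867 with PP and 6013 to 11381 with LL, and every female PP mouse was below every male PP mouse. Lcn2 had 22.8, 444, 24.2 and 37.2 in male PP livers and 9.58, 25.1, 4.23 and 26.8 in those of male LL mice. It ranged over 6.15 to 26.6 in female PP and 11.1 to 26.04 in female LL mice, and male PP 2 stood far above the other 17 livers. Lbp had 237, 440.4, 226 and 306 in male PP livers and 130.1, 155, 120.2 and 191 in those of male LL mice, and each male LL mouse was below each male PP mouse. Female PP mice had 254, 244, 205, 185 and 194 and female LL mice 206, 178, 139.9, 169.7 and 196 normalized counts of Lbp, between the male groups on average. Most Lbp counts, 96.9%, were on its coding transcript of 2525 bases.

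**Figure D3:**
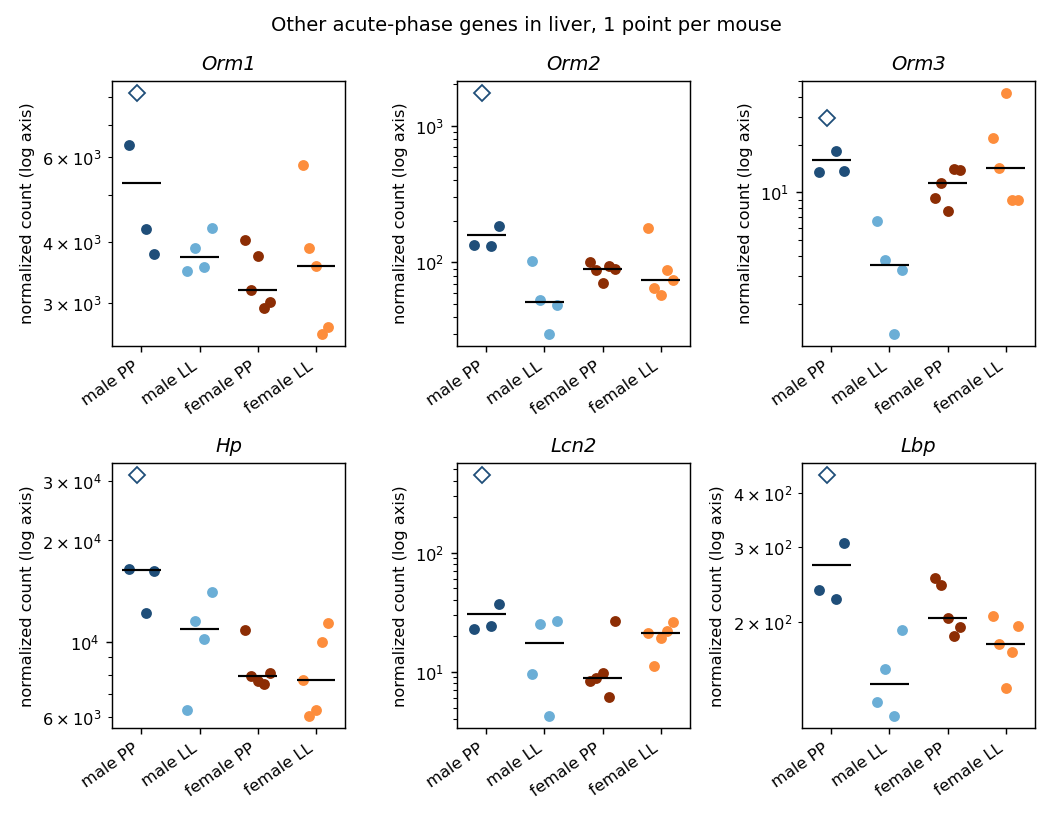
Normalized counts of Orm1, Orm2, Orm3, Hp, Lcn2 and Lbp in each liver on log axes, 1 point per mouse with group medians as lines and male PP 2 as an open diamond. For Orm2, Orm3 and Lbp the 4 male LL mice lie below the 4 male PP mice, and male PP 2 is the highest of the 18 mice for every gene but Orm3.

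Because male PP 2 led the male PP group for all 10 members, its distance from the rest was measured over all genes. Among 9847 genes with a mean of at least 10 normalized counts in male PP mice, the ratio of male PP 2 to the median of the other 3 had a median of 0.996. Saa2 stood at 23.7 times and ranked 2, Lcn2 at 18.4 times and ranked 3, Saa1 at 16.8 times and ranked 4, and Orm2 at 12.9 times and ranked 9. The other genes of the first 9, in rank 1 and ranks 5 to 8, were Mup-ps17, Atp5mc2, Diaph2, Oaz1-ps and Cish, a cytokine-induced inhibitor of signalling, and were noted after their values were seen. Orm3, Orm1, Hp, Lbp and Saa4 stood at 2.18, 1.91, 1.92, 1.86 and 1.84 times, in ranks 141, 253, 249, 281 and 291. Saa3 had a ratio of 1.27 and rank 1635. Across all of these genes the library had 62 at least 4-fold above the median of its group, against 51 to 77 in the other 3 male PP libraries. Its total, 6172442 estimated counts, and its fragment length, 516 bases, were within the range of the other male PP libraries.

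Other cells were looked for in the same library. Kupffer cell markers summed to 1383 normalized counts in male PP 2, the highest of a male PP range that began at 548, and to 979.6 to 1209 in female PP livers. Monocyte and macrophage markers summed to 404, above all other livers. The 11 neutrophil markers, which bear on Lcn2 because neutrophil granules hold its protein, summed to 26.9 in male PP 2 and to 8.90 to 19.6 in female PP livers. Of these 11, 1 was at 0 in all libraries, 7 had a mean below 1 normalized count and none passed the count filter. The part of these cells in the counts of male PP 2 was not tested.

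**Figure D4:**
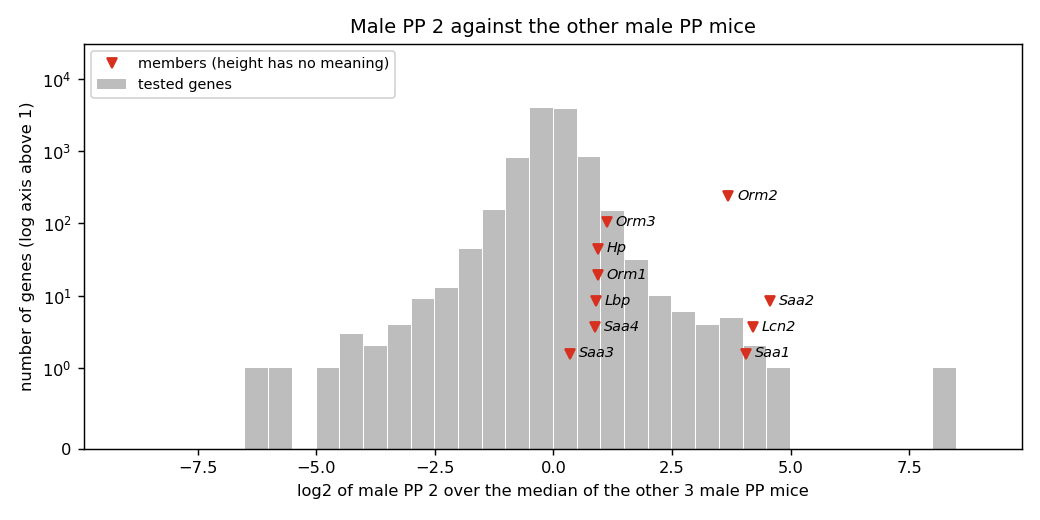
Histogram over 9847 genes of the log2 ratio of the normalized count in male PP 2 to the median of the other 3 male PP mice, with the number of genes on a log axis and the 10 members as triangles at their ratio. Saa2, Lcn2, Saa1 and Orm2 lie in the far right tail, at ratios of 12.9 to 23.7, and the other 6 lie between 1.27 and 2.18.

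The effect of the LL genotype was tested in males first. Saa1, Saa2 and Lbp fell in male LL livers, 3 of the 10 members, where 0.0731% of the 10938 tested genes were called lower and 0.283% in either direction. The log2 fold change of Saa1 was -3.33 ± 0.69 (SE, n = 4 against 4, DESeq2 adjusted P = 0.000723), a level 10.04-fold lower. That of Saa2 was -3.74 ± 0.83 (DESeq2 adjusted P = 0.00266). Lbp was 2.03-fold lower, or -1.02 ± 0.21 in log2 fold change (DESeq2 adjusted P = 0.000723). The Saa family sum fell by 2.02 ± 0.51 on the log2 scale (DESeq2 adjusted P = 0.0179), and the sum of Saa1 and Saa2, chosen after seeing that Saa4 fills the family in females, had -3.45 ± 0.72 (DESeq2 adjusted P = 0.000996). All 10 members had a log2 fold change below 0, where the median over all tested genes was near 0. Male PP 2 was the highest male PP mouse for each of them, so they are not 10 separate cases.

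The remaining members missed the threshold or had no test. Hp stood at -0.85 ± 0.27 in log2 fold change (DESeq2 adjusted P = 0.110), Saa4 -0.63 ± 0.19 (DESeq2 adjusted P = 0.0850) and Orm1 -0.57 ± 0.24 (DESeq2 adjusted P = 0.313). The Orm family sum, which is almost wholly Orm1, had -0.68 ± 0.26 (DESeq2 adjusted P = 0.232). For Orm2 (-3.23 ± 0.71) and Lcn2 (-3.01 ± 0.86) DESeq2 gave no p, since the Cook's distance of male PP 2, 12.5 and 8.86, was above its cutoff of 5.04. The distance for Saa2 was 4.33, just inside that cutoff. Orm3 had -2.45 ± 0.61 (unadjusted p by DESeq2 = 5.79e-05) but no adjusted P, which independent filtering withholds from genes of low mean count, and so had Saa3 (-0.30 ± 0.34). Orm2, Orm3 and Lbp did not overlap between the male groups, 3 of the 10 members, against 2.27% of tested genes in that direction. Orm3 met the count filter only with female libraries in the fit, and with males alone it was not among the 9 members tested.

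Leaving out male PP 2 made the Saa and Lbp differences smaller, and Saa2 lost its call. Saa1 stood at -1.50 ± 0.34 in log2 fold change (n = 4 against 3, DESeq2 adjusted P = 0.00925), 2.83-fold lower instead of 10.04-fold. Lbp had -0.78 ± 0.19 (DESeq2 adjusted P = 0.0280) and the Saa family sum -0.71 ± 0.17 (DESeq2 adjusted P = 0.0168), both still called. The Saa1 and Saa2 sum was 2.64-fold lower in place of 10.9-fold (DESeq2 adjusted P = 0.0204). Saa2 had -1.07 ± 0.37 (DESeq2 adjusted P = 0.420). Orm2, now with a test, had -1.38 ± 0.37 (DESeq2 adjusted P = 0.0741), Orm3 -2.13 ± 0.65 (DESeq2 adjusted P = 0.230) and Lcn2 -0.79 ± 0.53 (DESeq2 adjusted P = 0.981). Called lower were 2 of 10 members, against 0.0642% of 10904 tested genes lower and 0.183% in either direction. Orm2, Orm3 and Lbp did not overlap here either (3.35% of genes in that direction). Leaving out the highest male PP mouse could not have made these groups overlap.

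The male calls depended on the test as well. With edgeR's quasi-likelihood test, 0 of the 10 members were called, with adjusted p-values of 0.113 for Lbp, 0.139 for Saa1 and 0.183 for Saa2. An unadjusted p below 0.05 was found for 9 of the 10, which was not set against the share of all genes. Leaving out male LL 4 moved the Saa2 log2 fold change to -4.34 (DESeq2 adjusted P = 0.000810), and without male PP 1 Saa1, Saa2 and the Saa family sum had no p. The call of the Saa family sum was lost without male LL 1 or 2, at DESeq2 adjusted P of 0.104 and 0.0687, and Lbp had no adjusted P without female PP 3 or male LL 3. Other members gained a call where a library was left out. Orm2 was called without male PP 1 or 3, at DESeq2 adjusted P of 0.000874 and 0.000313, and Lcn2 without male PP 1, at 0.0445. Hp was called without male PP 3 (DESeq2 adjusted P = 0.0356) and Saa4 without male PP 4 (DESeq2 adjusted P = 0.0245). Orm3 was called without male PP 1 or 4, male LL 1 or female PP 2, at DESeq2 adjusted P of 0.0268 to 0.0297. Male PP 2 was still in all of these fits. With every library kept, Orm2 was called without the Cook cutoff (DESeq2 adjusted P = 0.00233), and with fragment length or age as a term, at DESeq2 adjusted P of 0.0119 and 0.0112. Orm3 was called without independent filtering (0.0243), without the count filter (0.0420) and with age as a term (0.0256), all DESeq2 adjusted P. Lcn2 was called with the transcript length offset or age as a term, at DESeq2 adjusted P of 0.0275 and 0.0477. Kupffer cell markers summed to 488 to 884 normalized counts in male LL against 548 to 1383 in male PP livers. Of the 8 markers 0 were called and 6 had an unadjusted p below 0.05, with a median log2 fold change of -0.58, against 2 of 8 without male PP 2. These marker counts were not set against all tested genes. The part of Kupffer cells in the differences was not tested.

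In females no member was called. The share of all tested genes called by LL genotype was 0.658%, and 0 of the 10 members passed in DESeq2, with 0 at an unadjusted p below 0.05, and 0 in edgeR. Saa1 stood at 0.30 ± 0.62 in log2 fold change (SE, n = 5 against 5, DESeq2 adjusted P = 0.871), Saa2 0.54 ± 0.75 (DESeq2 adjusted P = 0.797) and the Saa family sum 0.074 ± 0.46 (DESeq2 adjusted P = 0.965). The errors of these values take in the spread of male PP 2, because 1 fit shares its estimate of the spread. Without that library the error of the Saa1 value narrowed from 0.62 to 0.30 around 0.30 in log2 fold change (DESeq2 adjusted P = 0.679). Lbp had -0.28 ± 0.19 (DESeq2 adjusted P = 0.485). Hp and Orm1 had -0.022 ± 0.25 and 0.13 ± 0.22, with DESeq2 adjusted P of 0.984 and 0.831. Orm3, with 0.78 ± 0.43 (unadjusted p by DESeq2 = 0.0713), had the smallest p of the members with one. The female groups overlapped for every member, where 1.16% of tested genes were lower and 1.5% higher in LL with no overlap. Leaving out male PP 2 gave 0 female calls among the members too, against 0.679% of tested genes.

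The difference of the genotype effect between the sexes was tested as an interaction, the male effect less the female effect. Saa1 had an interaction of -3.62 ± 0.93 on the log2 scale (SE, DESeq2 adjusted P = 0.0245) and Saa2 of -4.28 ± 1.12 (DESeq2 adjusted P = 0.0274), 2 of the 10 members called, against 0.119% of tested genes. The Saa family sum had -2.10 ± 0.69 (DESeq2 adjusted P = 0.0770). With male PP 2 left out 0 members were called, against 0.055% of tested genes. The interaction of Saa1 was then -1.80 ± 0.45 (DESeq2 adjusted P = 0.0753). That of Saa2 was -1.61 ± 0.49 (DESeq2 adjusted P = 0.220). Both calls were also lost on leaving out any of female LL 1, 3 and 4, female PP 1 to 4 or male LL 1, and the Saa2 call without male LL 2. Without male LL 4 Saa2 had -4.88 (DESeq2 adjusted P = 0.0303), and without male PP 1 neither gene had a p. By edgeR 0 members were called, with adjusted p-values of 0.470 and 0.570 for Saa1 and Saa2. With DESeq2 both calls were also lost without the count filter, without independent filtering, and with the transcript length offset, fragment length or age as a term, at adjusted P of 0.0602 to 0.0743 for Saa1 and 0.0731 to 0.0814 for Saa2. Lbp had -0.74 ± 0.28 (unadjusted p by DESeq2 = 0.00863, no adjusted P). Orm3 had -3.24 ± 0.75 (unadjusted p by DESeq2 = 1.55e-05, no adjusted P), and was called without female LL 4, female PP 1, 2 or 4, male LL 1 or 4, or male PP 3 or 4, at DESeq2 adjusted P of 0.0104 to 0.0490. The Saa family sum was called without male PP 3 or 4, at DESeq2 adjusted P of 0.0313 and 0.0251.

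**Figure D5:**
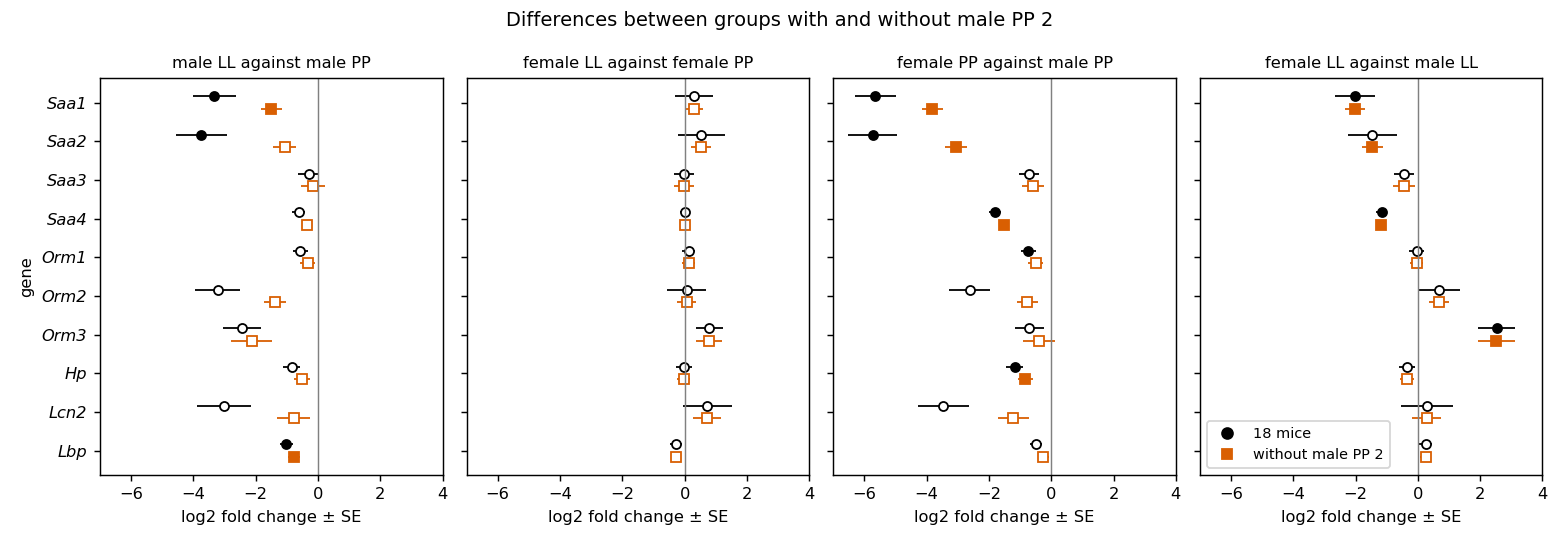
Log2 fold change with its standard error for each member in 4 comparisons, from all 18 mice (black circles) and without male PP 2 (orange squares), with filled symbols for called genes. Lbp and Saa1 are filled in both fits for male genotype, no symbol is filled for female genotype, and Saa1, Saa2, Saa4 and Hp are filled in both fits for female PP against male PP.

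Female PP livers held less Saa1, Saa2, Saa4, Hp and Orm1 than those of male PP mice, 5 of the 10 members, where 2.77% of tested genes were called lower and 3.68% higher. Saa1 was 49.9-fold lower (log2 fold change -5.64 ± 0.65, n = 5 against 4, DESeq2 adjusted P = 2.08e-15) and Saa2 53.3-fold lower (-5.74 ± 0.79, DESeq2 adjusted P = 6.68e-11). With male PP 2 left out these were 14.1-fold (-3.82 ± 0.33, DESeq2 adjusted P = 1.76e-27) and 8.37-fold (-3.07 ± 0.36, DESeq2 adjusted P = 3.85e-15). Saa4 was 3.49-fold lower (-1.80 ± 0.19, DESeq2 adjusted P = 8.32e-20), and 2.86-fold without male PP 2 (DESeq2 adjusted P = 1.74e-23). Hp was 2.26-fold lower (DESeq2 adjusted P = 0.000256) and 1.78-fold without that mouse (DESeq2 adjusted P = 0.0146). By limma on log2(TPM + 1) Hp was not called (adjusted p = 0.394). Saa1, Saa2, Saa4, Hp and Orm2 did not overlap between the groups, against 4.53% of genes in that direction with all mice. Without male PP 2 the share was 6.35%. The same 5 did not overlap there, which leaving out the highest male PP mouse could not change. Called lower without male PP 2 were 4 of 10 members, against 2.45% of genes in that direction, and 0 were called higher, against 2.81%.

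The sex difference of Orm1 turned on single mice. On the log2 scale it had -0.73 ± 0.23 (DESeq2 adjusted P = 0.0261) with all mice and -0.50 ± 0.23 (DESeq2 adjusted P = 0.229) without male PP 2, and lost its call as well without male PP 1 or female PP 2, 4 or 5. The Orm family sum had -0.83 ± 0.25 (DESeq2 adjusted P = 0.0148), and 0.209 was its adjusted P without male PP 2 by DESeq2. It was not called without male PP 1 either, at a DESeq2 adjusted P of 0.0549. Lbp had -0.49 ± 0.20 (DESeq2 adjusted P = 0.123), Orm3 -0.71 ± 0.46 (DESeq2 adjusted P = 0.471) and Saa3 -0.72 ± 0.32 (DESeq2 adjusted P = 0.188). Orm2 and Lcn2 had no p by DESeq2 and were called lower by edgeR's quasi-likelihood test, at adjusted p-values of 0.0164 and 0.0108. DESeq2 called both without male PP 1 or 3, at adjusted P of 0.000769 and 0.000773 for Orm2 and of 0.000261 and 0.000287 for Lcn2, and without the Cook cutoff, at 0.00259 and 0.000803. Saa1 and Saa2 had no p without male PP 1. With male PP 2 left out, Orm2 and Lcn2 had -0.77 ± 0.34 and -1.21 ± 0.50 in log2 fold change, at DESeq2 adjusted P of 0.216 and 0.163.

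In LL mice the sexes were compared between livers outside the male PP group, although the 1 fit takes its estimate of the spread from all 18 libraries. Saa1 and Saa4 were lower in female LL than in male LL livers and Orm3 was higher, against 2.79% of tested genes called lower and 3.33% higher. Saa1 stood at -2.02 ± 0.66 in log2 fold change (n = 5 against 4, DESeq2 adjusted P = 0.0351), 4.05-fold lower. Saa4 had -1.17 ± 0.19 (DESeq2 adjusted P = 5.65e-08). Orm3 had 2.53 ± 0.59 (DESeq2 adjusted P = 0.000911), 5.76-fold higher, from a low count. Male LL livers had 1.44 to 5.11 estimated counts of it, and it met the count filter only with other groups in the fit. With LL mice alone 9 members were tested, and Orm3 was not among them. Saa1, Saa2 and Saa4 did not overlap between the LL groups (4.53% of genes in that direction), nor did Orm3 in the other direction (3.64%). Hp had -0.35 ± 0.26 (DESeq2 adjusted P = 0.483), Lbp 0.25 ± 0.20 (DESeq2 adjusted P = 0.523) and Orm1 -0.040 ± 0.23 (DESeq2 adjusted P = 0.956). Of the 8 Kupffer cell markers, Vsig4 was called higher in female LL than male LL livers, at 0.85 ± 0.25 (SE, DESeq2 adjusted P = 0.0160). The sums of all 8 overlapped, at 605 to 948 normalized counts in female LL and 488 to 884 in male LL livers. The part of Kupffer cells in these differences was not tested.

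The Saa1 call in LL mice sat close to the threshold. It was lost without female LL 1, 2, 4 or 5 or male LL 1, 2 or 4, at DESeq2 adjusted P up to 0.143, and by edgeR (adjusted p = 0.0688). With every library kept it was also lost with age, fragment length or replicate number as a term, at DESeq2 adjusted P of 0.0502, 0.119 and 0.0664. By limma on log2(TPM + 1) the adjusted p was 0.0678. Without male PP 2 the log2 fold change of Saa1 was -2.02 ± 0.31 (DESeq2 adjusted P = 8.31e-09), that of Saa2 -1.46 ± 0.33 (DESeq2 adjusted P = 0.000627) and that of the Saa family sum -1.31 ± 0.15 (DESeq2 adjusted P = 4.80e-16), all 3 called. In that fit 3 of 10 members were called lower, against 2.74% of tested genes, and 1 higher, against 3.26%. With all mice Saa2 had -1.45 ± 0.79 (DESeq2 adjusted P = 0.290) and the family sum -1.30 ± 0.49 (DESeq2 adjusted P = 0.0793). The family sum was also called without male PP 3 or 4, at DESeq2 adjusted P of 0.0388 and 0.0384. The fold changes hardly moved, and the error of Saa1 went from 0.66 to 0.31. The comparisons of female PP and of male LL with male PP share the male PP libraries, so their values are not independent of each other.

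Other genes of the response were read from 7 lists. Of 20 further positive acute-phase genes, 0 rose and 1 fell in male LL livers, 0 changed in females by genotype, and 3 fell and 0 rose in female PP against male PP livers. The male gene was C4b, a complement component, at -0.61 ± 0.16 (SE, DESeq2 adjusted P = 0.0240) on the log2 scale, and 0 of the 20 were called without male PP 2. The 3 lower in female PP were Steap4, a metalloreductase induced in inflamed liver (-0.98 ± 0.21, DESeq2 adjusted P = 0.000127), Lrg1, a secreted leucine-rich glycoprotein (-1.53 ± 0.34, DESeq2 adjusted P = 0.000256), and Serpina3n, a protease inhibitor (-0.65 ± 0.19, DESeq2 adjusted P = 0.0102). In LL mice Steap4 (-0.89 ± 0.21, DESeq2 adjusted P = 0.00135) and Fga, a fibrinogen chain (-0.60 ± 0.19, DESeq2 adjusted P = 0.0264), were lower in females. In the fit without male PP 2 Serpina3n was no longer called and C3, the central complement protein, was called higher in females, at 0.55 ± 0.15 (SE, DESeq2 adjusted P = 0.00557) in PP and 0.40 ± 0.13 (SE, DESeq2 adjusted P = 0.0411) in LL mice. The median log2 fold change of the list was -0.33 for male genotype and -0.24 for female PP against male PP, against 7.51e-05 and -0.0016 over all tested genes. Without male PP 2 these medians were -0.21 and -0.048. For female genotype the median was -0.22, with 4 of the 20 at an unadjusted p below 0.05, and neither value was set against all tested genes.

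Among 8 plasma proteins that fall in an acute-phase response, 0 were called by genotype in either sex and 3 were higher in female PP than male PP livers. These were Alb, albumin (0.94 ± 0.10, DESeq2 adjusted P = 2.23e-17), Serpina6, the corticosteroid-binding globulin (1.10 ± 0.30, DESeq2 adjusted P = 0.00481), and Ahsg, fetuin-A (0.47 ± 0.15, DESeq2 adjusted P = 0.0374). Serpina6 (1.01 ± 0.29, DESeq2 adjusted P = 0.0149) and Ahsg (0.46 ± 0.15, DESeq2 adjusted P = 0.0440) were higher in female LL than male LL livers too. Alb had an interaction of 0.61 ± 0.14 (SE, DESeq2 adjusted P = 0.0180), and no call without male PP 2. Its male genotype value was 0.37 ± 0.11 (SE, DESeq2 adjusted P = 0.0524).

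The signalling lists held few calls. Of 12 genes of the IL-6 and STAT3 arm, 10 passed the count filter and 0 were called in any comparison. The smallest p over the comparisons was that of Jak1, a kinase bound to the IL-6 receptor subunit gp130, with -0.39 ± 0.11 (SE, DESeq2 adjusted P = 0.0371) for female genotype and -0.39 ± 0.12 (SE, DESeq2 adjusted P = 0.0175) for female LL against male LL livers. Both passed the threshold on P but not the limit of 0.7 on the ratio. The gene of smallest p in males was Lifr, a receptor subunit for leukaemia inhibitory factor, with -0.77 ± 0.23 (SE, DESeq2 adjusted P = 0.0673). Of 17 genes of the IL-1, TNF and NF-kB arm 13 passed, and 1, Il1r1, the receptor for IL-1, was lower in females, at -1.72 ± 0.25 (SE, DESeq2 adjusted P = 4.67e-10) in PP and -0.97 ± 0.26 (SE, DESeq2 adjusted P = 0.00650) in LL mice. Il1r1 had 191 ± 51.1 normalized counts in male PP, 88.8 ± 29.1 in male LL, 57.8 ± 10.7 in female PP livers and 45.4 ± 13.5 in those of female LL mice (SD, n = 4, 4, 5 and 5). In males by genotype its log2 fold change was -1.09 ± 0.26 (unadjusted p by DESeq2 = 2.47e-05, no adjusted P). Its sex difference was called without male PP 2 too, at -1.67 ± 0.28 (SE, DESeq2 adjusted P = 1.52e-07) in PP mice.

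Partners of the member proteins were mostly below the filter. Of 9, among them the lipopolysaccharide receptors Tlr4 and Cd14 and the haptoglobin receptor Cd163, 4 passed it and 0 were called. Cd163 had the smallest p in males, at -0.79 ± 0.37 (unadjusted p by DESeq2 = 0.0344, no adjusted P), and Scarb1, a lipoprotein receptor that also takes up serum amyloid A, the smallest over the comparisons, at -0.42 ± 0.17 (SE, DESeq2 adjusted P = 0.120) in female PP against male PP livers. Of 8 inflammatory chemokines and adhesion molecules 5 passed, and 1, the chemokine Cxcl10, was called, higher in female PP than male PP livers at 1.49 ± 0.47 (SE, DESeq2 adjusted P = 0.0267) and not called without male PP 2. Of 7 glucocorticoid targets all passed the filter and 0 were called, with Tat, tyrosine aminotransferase, at 0.74 ± 0.33 (SE, DESeq2 adjusted P = 0.340) in males by genotype. The smallest p of that list was that of Nr3c1, the glucocorticoid receptor, at -0.36 ± 0.12 (SE, DESeq2 adjusted P = 0.0983) for female genotype. Among cell type markers, 2 of the 4 sinusoidal endothelial and 3 of the 4 stellate cell markers were higher in female PP than male PP livers. Of all tested genes 3.68% were called higher there. Calls in the other marker lists are not all given, and the part of such cells in the sex differences was not tested.

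Whether the members rose and fell together from mouse to mouse was asked within groups, after subtracting the group means of log2(normalized count + 1). Over 18 mice Pearson's r and Spearman's rho of the Saa family sum were 0.797 and 0.835 with Lcn2, 0.687 and 0.422 with the Orm family sum, 0.622 and 0.591 with Hp, and 0.589 and 0.478 with Lbp. The permutation p of rho, adjusted over these 4 pairs, was 0.000120, 0.0830, 0.0225 and 0.0615 in that order (raw permutation p 3.00e-05, 0.0830, 0.0113 and 0.0461). For r the adjusted permutation p was 0.00220, 0.00220, 0.00635 and 0.0105 (raw permutation p 0.000620, 0.00110, 0.00476 and 0.0105). Leaving out male PP 2 and male PP 4, the 2 mice farthest from the median of the Saa sum, brought r to 0.605, 0.355, 0.483 and 0.455. The group means subtracted before that step still held both mice, so it does not free the other male PP values from male PP 2. The permutation p also takes the 18 deviations as separate, although male PP 2 shifts those of its whole group.

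Without male PP 2 alone, rho over the other 17 mice was 0.397 with Lcn2, 0.402 with the Orm sum, 0.392 with Hp and 0.0662 with Lbp, with adjusted permutation p of 0.159, 0.159, 0.159 and 0.801. None of the 4 relations passed there, and r with Lcn2 was 0.244. That r was 0.638 with male PP 1 and 4 left out as well, after group means that held both had been subtracted. Across the other 9994 genes with a mean of at least 10, the highest rho with the Saa family sum were those of Stard13 and Rrp1b (0.756 each), Serpina10 and Jarid2 (0.750 each) and Adipor1 (0.723), over 18 libraries. For Lbp they were Hpx, which encodes the haem carrier haemopexin (0.866), Ctc1 (0.802), Slc3a1 (0.777), Icam1 (0.771) and Nelfe (0.771). Rankings over so few mice are a description only.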

How the data were processed

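Liver RNA of 18 mice was sequenced by the study's authors, who checked read quality with FastQC, trimmed nothing and quantified transcripts with Salmon 1.4.0 against GENCODE on GRCm39. The authors deposited, for each library, an estimated count and a TPM value for each of 139225 transcripts. Estimated counts of the 137570 transcripts found in GENCODE M39 (at least 99.76% of the counts of each library) were summed per gene and per family and rounded to whole numbers.

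The main test was DESeq2 1.42.0 (R 4.3.3), with all 18 libraries in 1 fit of 4 groups, size factors by median of ratios, and genes of at least 10 counts in at least 4 libraries. P-values were adjusted by Benjamini-Hochberg over all tested genes. Alternatives used edgeR 4.0.16, limma 3.58.1 on log2(TPM + 1), other scalings, filters and terms, and each library left out. On simulated data with 200 genes of 10938 changed 2-fold, DESeq2 recovered 71.8% for male and 84.2% for female genotype, with means of 20 and 20.5 false calls, and edgeR 62.2% and 77%, with 7 and 8.5. The simulated counts held no library standing apart as male PP 2 did, so these rates do not carry over to the members. Correlations used 100000 permutations.

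The members and lists were chosen with earlier results of these data known. All members are named, and from each list the genes called (at most 5, by smallest p) or otherwise the gene of smallest p. Each library is labelled as its own mouse, and intervals of counting error were not used because the spread between mice includes it. The deviations of same-numbered PP and LL mice correlated at -0.276 to 0.193, above 0.1 in 4 of 9 pairs, so numbers were not taken as pairs. No library was left out of the main test.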

Additional observations from a re-analysis of the deposited data

Results flagged for a closer look

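In 10 of the 52 combinations of a gene or sum with a group, 1 mouse lay far from the others of its group by Dixon's criterion on unlogged counts. A chance rate of about 1 in 20 holds for separate, normally spread values. Here the sums share counts with their genes and male PP 2 recurs, so the 10 are no test of an excess. Male PP 2 was the mouse apart for Saa1 (12575 normalized counts), Saa2 (7007), Orm2 (1727), Lcn2 (444), the Saa family sum (23110) and the sum of Saa1 and Saa2 (19582). Male LL 4 stood above the other male LL mice for Saa2, at 299.5 normalized counts. Among females, female LL 1 stood apart for Orm2 (178 normalized counts), female PP 1 for Hp (10867) and female PP 5 for Lcn2 (26.6).

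The effect of the LL genotype differed between males and females in the interaction test of DESeq2 for Saa1 (-3.62 on the log2 scale, adjusted P = 0.0245), Saa2 (-4.28, adjusted P = 0.0274) and the sum of both (-3.83, adjusted P = 0.0227). Without male PP 2 the adjusted P was 0.0753 for Saa1, 0.220 for Saa2 and 0.0707 for the sum, at -1.80, -1.61 and -1.78 on the log2 scale. The sum of Saa1 and Saa2 was chosen after seeing the data.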

How the results depend on the processing

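The male difference rests on a few livers and on the tool. Members called between male LL and male PP numbered 3 in the main test, 0 by edgeR, 0 by limma on log2(TPM + 1) and 6 with age as a term, and 2 to 5 with a library left out. Apart from the fit without male PP 2, member counts under the alternatives here were not set against the share of all genes called. The Saa family sum had a log2 fold change of -2.03 by edgeR (adjusted p = 0.238), -2.07 with fragment length as a term (adjusted P = 0.0737), -1.97 with age (0.0755), -2.02 in males alone (0.264) and -1.47 by limma (0.221, values by DESeq2 unless named), and -2.32 to -0.71 with a library left out, the last without male PP 2. For female genotype no member was called under any alternative. Signs turned among values near 0, for which the cause was not tested. With fragment length as a term the Saa family sum was -0.0037, Saa3 0.27, Saa4 -0.15 and Orm2 -0.068. With the transcript length offset Saa3 was 0.039 and Lbp 0.060, and by limma Saa4 was -0.071 and Orm2 -0.12. With a library left out the female log2 fold changes were -0.092 to 0.23 for the Orm family sum, -0.11 to 0.044 for Saa3, -0.030 to 0.048 for Saa4, -0.090 to 0.23 for Orm1, -0.32 to 0.20 for Orm2 and -0.16 to 0.086 for Hp.

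In female PP against male PP livers, limma called 3 members in place of 5. The calls lost by limma were Hp (-0.35 ± 0.34, SE, adjusted p = 0.394) and Orm1 (-0.076 ± 0.25, adjusted p = 0.818). The Orm family sum was -0.83 by edgeR (adjusted p = 0.0595), -0.14 by limma (0.673) and -0.99 to -0.51 with a library left out. In female LL against male LL livers limma called 1 member in place of 3. There the Saa family sum was -1.79 with the transcript length offset (adjusted P = 0.0219), -1.30 in LL mice alone (adjusted P = 1.11e-30) and -1.34 to -1.27 with a library left out. The Orm family sum was 0.0062 with fragment length as a term and 0.020 by limma, where Orm1 was 0.00074. With a library left out the Orm family sum ranged over -0.24 to 0.084, Orm1 over -0.26 to 0.066, Saa3 over -0.65 to 0.050 and Lcn2 over -0.038 to 0.64.

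In the interaction, the 2 members called, Saa1 and Saa2, gave way to 1 other member under 5 alternatives. This was Orm3 without the count filter, without independent filtering, with fragment length or with age (adjusted P = 0.0446, 0.0282, 0.0201 and 0.0270) and Lbp with the transcript length offset (-1.94, adjusted P = 0.0411). The members called were 0 by edgeR and 0 by limma, and 0 to 3 with a library left out, where the Saa family sum was -2.39 to -0.78. With replicate number as a block, 0 members were called in the interaction, 2, 0, 7 and 2 in the other comparisons in the order above, and Orm2 in females was -0.0027. No male liver of 8 and 5 female livers of 10 correlated best with their own number, a hint from the data and not from the design. Genes called over the whole table by edgeR were 3 for male and 3 for female genotype, against 31 and 72. Scaling by TMM moved no count of calls by over 1.5 times. The limma values on TPM shifted the median of all genes by 0.21 for male genotype, 0.50 for female PP against male PP, 0.20 for female LL against male LL and 0.29 for the interaction, and called 4223 genes higher and 84 lower in female PP, against 402 and 303. The difference in the Saa2 share, LL less PP, was 0.17 percentage points in males by TPM, -3.48 to 2.32 by counts with a library left out, and 2.904 to 6.05 in females. The Spearman rho of the Saa and Orm family sums was 0.511 on log2(TPM + 1) (adjusted permutation p = 0.0436), and without male PP 2 rho was 0.392 with Hp and 0.397 with Lcn2. In 32 combinations of result and alternative DESeq2 gave no adjusted P, 14 of them for results called in the main test, and these are not counted as lost. Depth limits chiefly Orm3, Lcn2 and Saa3, which had few counts in most livers.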
